A study of Mus musculus with 8 samples.

Results

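Lower segments are stretches of chromosomes 15 and 19 in which the resistant tumors held a smaller share of their H3K4me3 peaks than the sensitive tumors. They run from 50000001 to 56000000 on chromosome 15 and from 8000001 to 16000000 on chromosome 19 (mm9), and were chosen by the H3K4me3 ratio of 2-Mb bins. Cut into 10-kb tiles, they make 600 and 800 members, 1400 of the 265500 tiles of chromosomes 1 to 19, X and Y. The H3K4me3 contrast is therefore given as a description, and H3K9ac, H3K27me3 and H3K36me3 were not used by the rule but come from the same tumors.

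Lewis lung carcinoma (LLC) is a mouse lung tumor line that grows as isografts in C57BL/6J mice. LLC-NR cells respond to VEGF-Trap, a decoy receptor that binds VEGF, and LLC-R cells were derived from the same line by repeated selection under VEGF-Trap in mice. Both were grown under the skin of the flank of female C57BL/6J mice, 6 to 8 weeks old when bought. Nucleosomes were released from crosslinked isografts with micrococcal nuclease and precipitated with an Abcam antibody against H3K4me3, H3K9ac, H3K27me3 or H3K36me3. The tissue is labelled lung although the isografts grew under the skin, and it holds host cells beside tumor cells. Each line and mark has 1 library, 8 in all, so the differences between LLC-NR and LLC-R have no replicate check and no test is given. The 95% intervals given are exact binomial ones, which hold the counting error and nothing else.

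H3K4me3 sits on nucleosomes around the starts of active genes, and H3K9ac marks active promoters and enhancers. H3K27me3 is placed by Polycomb complexes on silent developmental genes. H3K36me3 is laid down behind elongating RNA polymerase II and marks the bodies of transcribed genes. The chromosome 15 segment is known for genes of cohesin and heparan sulfate synthesis (Rad21, Ext1), and the chromosome 19 segment for fatty acid desaturases (Fads1 to Fads3), the Ms4a family of leukocyte membrane proteins and a large cluster of olfactory receptor genes.

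The libraries held from 5660458 to 9101721 peaks, each 147 bp wide, and peaks of a library never overlapped. LLC-R had nearly the same number of H3K4me3 peaks as LLC-NR (5660458 against 5678337), fewer of H3K9ac (7853593 against 8547101) and more of H3K27me3 (9101721 against 7245090) and H3K36me3 (8747519 against 6432447). Levels are therefore compared as shares of the library's own peaks. Promoters of marker genes of lung epithelium, leukocytes, endothelium and fibroblasts each held from 3 to 7 H3K4me3 peaks, so that numbers of peaks did not tell these cell types apart. No input library was used here, so fewer copies of the DNA and less of a mark per nucleosome cannot be told apart.

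Promoter sequences show the range of base composition in the segments and promoters with fewer and, at Tnfrsf11b, more H3K4me3 peaks in LLC-R. These 4 were picked after their values had been seen. Each line gives the 250 bases before the TSS, 5′ to 3′ along the gene, from NCBIM37 (the assembly of mm9), with CpG dinucleotides in capitals.
Taf2, chr15:54903708-54903957, minus strand: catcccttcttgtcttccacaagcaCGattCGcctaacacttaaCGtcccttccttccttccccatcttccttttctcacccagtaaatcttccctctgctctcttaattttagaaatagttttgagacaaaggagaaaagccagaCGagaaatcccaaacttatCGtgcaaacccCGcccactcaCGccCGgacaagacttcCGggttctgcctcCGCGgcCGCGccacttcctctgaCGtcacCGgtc
Tnfrsf11b, chr15:54110040-54110289, minus strand: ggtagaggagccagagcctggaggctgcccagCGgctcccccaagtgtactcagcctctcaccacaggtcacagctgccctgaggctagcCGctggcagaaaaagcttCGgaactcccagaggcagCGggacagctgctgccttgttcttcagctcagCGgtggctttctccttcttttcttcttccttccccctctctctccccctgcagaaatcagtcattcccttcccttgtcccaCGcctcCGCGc
Osbp, chr19:12040084-12040333, plus strand: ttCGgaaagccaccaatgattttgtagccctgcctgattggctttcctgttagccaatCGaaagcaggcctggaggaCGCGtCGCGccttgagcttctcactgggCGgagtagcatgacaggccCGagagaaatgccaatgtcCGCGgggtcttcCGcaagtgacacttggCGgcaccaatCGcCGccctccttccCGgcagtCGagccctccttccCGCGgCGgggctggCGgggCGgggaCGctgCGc
Ms4a5, chr19:11358304-11358553, minus strand: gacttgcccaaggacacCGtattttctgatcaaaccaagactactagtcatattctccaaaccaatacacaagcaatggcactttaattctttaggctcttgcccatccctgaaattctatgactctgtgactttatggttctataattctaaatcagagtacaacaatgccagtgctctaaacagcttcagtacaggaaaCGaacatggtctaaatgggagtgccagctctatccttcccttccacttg
Osbp, which codes for an oxysterol binding protein, had 23 CpGs in these bases, Taf2, a subunit of the general transcription factor TFIID, had 15, Tnfrsf11b, the decoy receptor osteoprotegerin, had 8, and Ms4a5 had 2. The Osbp promoter had 7 H3K4me3 peaks in LLC-NR but 3 in LLC-R, the Taf2 promoter had 7 and 5, and the Ms4a5 promoter had 6 and 1. The Tnfrsf11b promoter went the other way, with 2 and 5.

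In the chromosome 15 segment, H3K4me3 counted 14349 peaks in the sensitive and 11839 in the resistant tumors, or 2392 and 1973 per Mb. The share of the library was 17.2% lower in LLC-R, a log2 ratio of -0.27 (95% interval -0.31 to -0.24), while the rest of the chromosome stood at -0.060 (-0.069 to -0.051). H3K4me3 of the chromosome 19 segment counted 17769 peaks in the sensitive and 14855 in the resistant tumors, a share 16.1% lower, with a log2 ratio of -0.25 (-0.29 to -0.22) against -0.043 (-0.054 to -0.032) in the rest of the chromosome. These values chose the segments.

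The 3 marks outside the rule were lower as well, but by less. In chromosome 15, H3K9ac counted 21490 peaks for LLC-NR, 18506 for LLC-R, a log2 ratio of shares of -0.094 (-0.12 to -0.065) against -0.040 in the rest of the chromosome. H3K27me3 counted 19218 and 22140 peaks there, which is a lower share of a larger library, at -0.12 (-0.15 to -0.097) against -0.026. H3K36me3 counted 16767 and 20534 peaks, at -0.15 (-0.18 to -0.12) against -0.014. In chromosome 19, H3K9ac counted 25946 and 22151 peaks, at -0.11 (-0.13 to -0.080) against -0.0091 in the rest. H3K27me3 counted 22858 and 26368 peaks, at -0.12 (-0.15 to -0.097) against -0.067, and H3K36me3 counted 19100 and 24489 peaks, at -0.085 (-0.11 to -0.058) against -0.048. Only for H3K36me3 on chromosome 19 did the interval of the segment meet that of the rest of the chromosome (-0.058 to -0.038), and neither interval covers variation between tumors. Near the chromosome 15 segment, the H3K9ac interval also met those of 37 to 45 Mb (-0.11 to -0.057), 45 to 50 Mb (-0.15 to -0.078) and 56 to 61 Mb (-0.11 to -0.047). The H3K27me3 interval met the first and last of these (-0.13 to -0.084 and -0.13 to -0.072), while 45 to 50 Mb stood at 0.21. H3K36me3 met none of them. In chromosome 19, H3K9ac met the 5 Mb before (-0.11 to -0.045) and H3K27me3 the 5 Mb after (-0.12 to -0.058). H3K36me3 met both there, the 5 Mb before (-0.13 to -0.065) and the 5 Mb after (-0.086 to -0.022). The 5 Mb before stood lower in H3K36me3 than the segment, at -0.098.

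**Figure D1:**
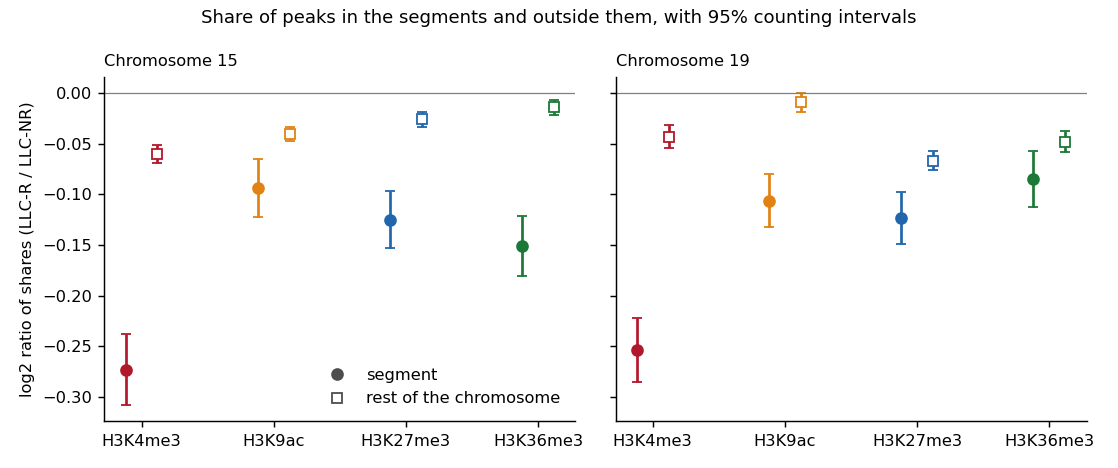
Log2 ratio of the shares of peaks, LLC-R over LLC-NR, for each mark in the segment (filled circles) and the rest of the chromosome (open squares), with exact binomial 95% intervals for counting error. H3K4me3, which chose the segments, lies at -0.27 and -0.25, and the other marks of the segments lie between -0.15 and -0.085.

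Among single tiles, 253 of the 582 tiles with at least 20 H3K4me3 peaks in both libraries together (43.5%) had a share lower by 20% or more in LLC-R in chromosome 15, and 266 of 696 (38.2%) in chromosome 19, where 12.4% of all tiles were. The shares of the rest of these chromosomes were 19.8% and 13.4%. For H3K9ac, 42 of 600 tiles of chromosome 15 and 94 of 751 tiles of chromosome 19 were lower, 7% and 12.5%, beside 2.97% of all tiles and 5.88% and 1.68% in the rest of the chromosomes. Scaled to the rest of the chromosome, 42 became 27. For H3K27me3 they were 105 of 600 (17.5%) and 140 of 761 (18.4%), beside 7.67% of all tiles and 9.27% and 10.6% in the rest. Scaled to the rest of the chromosome, these counts became 62 and 53, and 53 of 761 is no larger a share than that of all tiles. H3K36me3 gave 134 of 598 (22.4%) and 119 of 743, beside 9.79% of all tiles and 10.5% and 11.2% in the rest, and scaled to the rest of the chromosome 119 became 77. Of the H3K4me3 tiles counted, 81.6% in the chromosome 15 segment and 79.9% in that of chromosome 19 lay below 0 on the log2 scale. In the rest of these chromosomes 54.8% and 52.6% did, and 46.6% of all tiles. As H3K4me3 chose the segments, these shares are a description and do not test how the difference is spread. For the marks outside the rule, the shares ran from 62.45% (H3K36me3, chromosome 19) to 76.5% (H3K27me3, chromosome 15). In the rest they ran from 50.8% to 63.2%, and each mark had the higher share in the segment. The H3K4me3 tiles of the 600 and 800 that were not counted held fewer than 20 peaks in the 2 libraries together. In chromosome 19, 1 tile had no peak in any library.

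The median tile of chromosome 15 held 25 H3K4me3 peaks in the sensitive and 20 in the resistant tumors, and that of chromosome 19 held 24 and 19. H3K9ac medians were 38 and 33 in chromosome 15 and 36 and 31 in chromosome 19. No tile of either segment held more than 48 peaks of any mark. The lowest H3K4me3 tile of chromosome 19, 15780001 to 15790000, held 17 peaks in LLC-NR against 4 in LLC-R, a log2 ratio of -1.95, with 23 and 20 peaks of H3K9ac, 23 and 26 of H3K27me3 and 17 and 23 of H3K36me3. It lies between genes, as does the lowest tile of chromosome 15 (55910001 to 55920000), which held 28 and 13 H3K4me3 peaks. Single tiles also went the other way in other marks. Tile 54880001 to 54890000, inside the body of Taf2, held 16 H3K27me3 peaks in LLC-NR against 35 in LLC-R, and tile 8840001 to 8850000, over the end of the mRNA export gene Nxf1 and Tmem223, held 12 and 37.

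**Figure D2:**
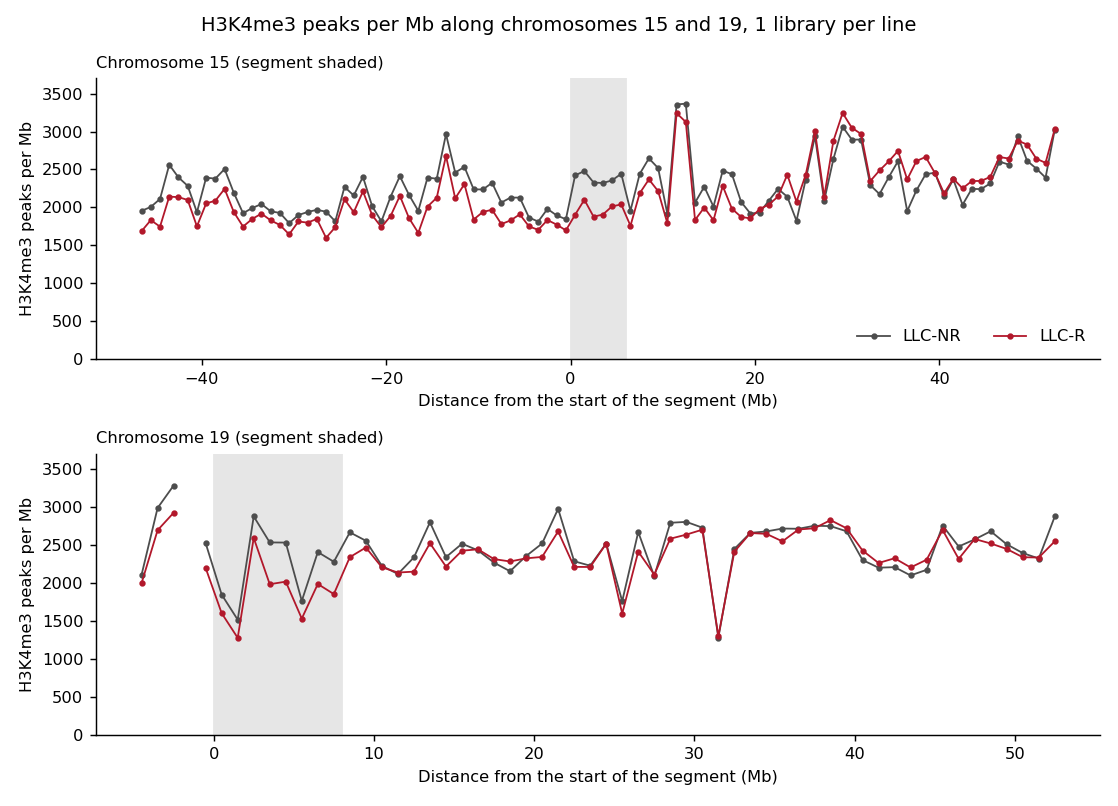
H3K4me3 peaks per Mb in 1-Mb bins of chromosomes 15 and 19, plotted by distance from the start of the segment (shaded), with LLC-NR in grey and LLC-R in red. Bins with less than 0.9 Mb of known sequence are left out. LLC-R lies below LLC-NR in all 14 bins of the segments, and also in every bin of chromosome 15 before the segment.

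The 14 bins of 1 Mb inside the segments all had fewer H3K4me3 peaks in LLC-R. In chromosome 15, the log2 ratio ran from -0.34 in the first bin, with 2422 and 1903 peaks, to -0.22 at 54 to 55 Mb, with 2356 and 2013. In chromosome 19 it ran from -0.35 at 11 to 12 Mb, with 2536 and 1985 peaks, to -0.15 at 10 to 11 Mb, with 2879 and 2595. H3K9ac was below 0 in all these bins, from -0.17 at 9 to 10 Mb of chromosome 19 to -0.040 at 51 to 52 Mb of chromosome 15. H3K27me3 was above 0 in 9 to 10 Mb (0.023) and 13 to 14 Mb (0.0055) of chromosome 19, and H3K36me3 in 13 to 14 Mb (0.13), which lies in the olfactory receptor cluster. All other bins of the segments were below 0 in both. Outside the segments, LLC-R also had fewer H3K4me3 peaks in every bin of chromosome 15 from 3 to 50 Mb and from 56 to 70 Mb. H3K9ac was below 0 in every bin there from 3 to 50 Mb and from 56 to 61 Mb. In chromosome 19, both held in every bin from 3 to 8 Mb.

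The rule counted a 2-Mb bin as low when its H3K4me3 log2 ratio was below -0.21, and asked for at least 3 such bins in a row. This limit was a low quantile of the same bins, so the number of low bins was set by the rule. Of 1287 bins, 33 were low, and 15 of these lay in the 3 runs found, with 3 bins in chromosome 15, 8 in chromosome 16 and 4 in chromosome 19. In chromosome 15 the bins inside were at -0.29, -0.29 and -0.24, and the bins next to them were at -0.10 before and -0.15 after. Other low bins of chromosome 15 made no run: 2 to 4 Mb (-0.21), 6 to 8 Mb (-0.21), 32 to 34 Mb (-0.22) and the neighbours at 40 to 42 Mb (-0.22) and 42 to 44 Mb (-0.21). In chromosome 19 the bins inside were at -0.22, -0.24, -0.27 and -0.28, with -0.15 before and -0.12 after. Ranked among the 1287 bins from the lowest, the 7 bins of the segments stood between 5 and 68 for H3K9ac, between 32 and 639 for H3K27me3 and between 63 and 442 for H3K36me3.

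**Figure D3:**
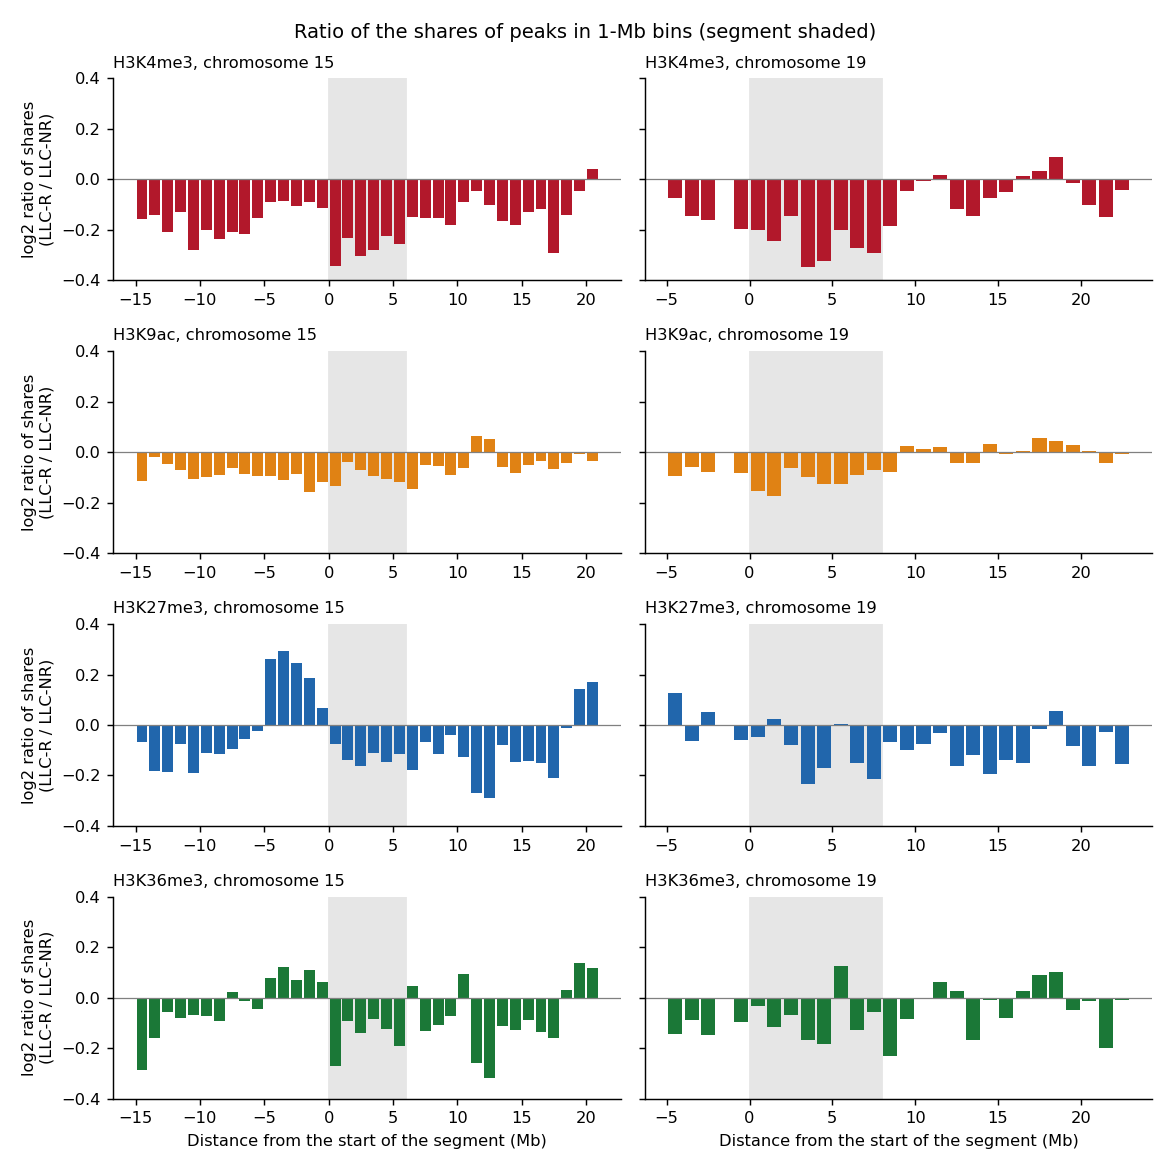
Log2 ratio of the shares of peaks, LLC-R over LLC-NR, in 1-Mb bins from 15 Mb before to 15 Mb after each segment (shaded), for the 4 marks. H3K4me3 is below 0 in the bins next to the segments as well, and H3K27me3 changes from above 0 to below 0 at the lower end of the chromosome 15 segment.

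The lower end of the chromosome 15 segment was sharp in H3K27me3 and H3K36me3, which the rule did not use, and in H3K4me3. As H3K4me3 bins set the nominal end, the H3K4me3 step near it is a description. A step in the ratio was located between 10-kb tiles, with the range of positions within 2 log-likelihood units. It fell at 50.06 Mb for H3K4me3 (49.79 to 50.24), at 49.96 Mb for H3K36me3 (49.69 to 50.02) and at 49.69 Mb for H3K27me3 (49.59 to 49.83). The H3K27me3 range ended before the nominal end. H3K27me3 went from a log2 ratio of 0.18 outside to -0.12 inside, and H3K36me3 from 0.066 to -0.17. H3K9ac took a step in the opposite direction, from -0.12 to -0.054, at 50.90 Mb with a range from 49.00 to 52.05 Mb. The 3 located steps lie in a stretch without protein-coding genes between Csmd3 and Trps1, from 48623609 to 50486307. Csmd3 codes for a large transmembrane protein. Trps1, a GATA-type transcriptional repressor on the minus strand, has its 3′ end at 50486307 and its TSS at 50721587. The 5 Mb before the segment differ from it in composition: G+C content was 36.4% against 39.9%, and its 1-Mb bins held from 1813 to 1980 H3K4me3 peaks in LLC-NR where those of the segment held from 2321 to 2479.

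The upper end of the chromosome 15 segment was not sharp. H3K4me3 had its best step at 57.56 Mb (55.92 to 58.72), within Zhx2, a gene of a zinc finger and homeobox repressor, from -0.24 inside to -0.11 outside. H3K9ac had it at 56.96 Mb (56.19 to the end of the scan). H3K36me3 had its best step at 53.18 Mb, 2.29 kb from Ext1, but with a range from 53.06 to 57.36 Mb. The best step of H3K27me3, at the same place, had a higher inside (0.24) than outside (-0.14), near the inner limit of the scan. The 5 Mb after the segment stood at -0.15 for H3K4me3, -0.079 for H3K9ac, -0.10 for H3K27me3 and -0.044 for H3K36me3. A stretch from 37 to 45 Mb, before the gene-poor flank, stood at -0.20, -0.082, -0.11 and -0.051. The segment was thus lower than its neighbours in H3K4me3, but the neighbours were below 0 too, and the last part of the chromosome, from 73 Mb on, was at 0.086.

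In chromosome 19, the lower end was not located in H3K4me3, H3K9ac and H3K36me3. H3K4me3 took its best step at the inner limit of the scan, 3 Mb past the nominal end, with a range that began at 7.30 Mb, and the range of H3K9ac covered the whole scan. H3K27me3 took it at 10.79 Mb (from 10.67 Mb to the inner limit of the scan), 1.09 kb from Vps37c, a subunit of the endosomal ESCRT-I complex, and 2.63 kb from Cd5, a receptor of T cells, from -0.013 outside to -0.22 inside. H3K36me3 had its best step at 10.92 Mb, but with a range from 5.30 Mb to the inner limit of the scan. The first 3 Mb of the segment stood at -0.18 for H3K4me3 and -0.044 for H3K27me3 and the last 5 Mb at -0.29 and -0.16. H3K9ac was alike in both, at -0.11 and -0.10.

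The upper end of the chromosome 19 segment lay past the nominal end. H3K4me3 had its step at 16.64 Mb (16.19 to 16.83), from -0.27 inside to -0.063 outside, and H3K9ac at 16.60 Mb (16.13 to 17.25), from -0.10 to -0.0070. Both positions are in Gna14, which codes for an alpha subunit of G proteins. H3K36me3 had its step at 17.52 Mb (17.26 to 17.85), in the proprotein convertase gene Pcsk5, and H3K27me3 could be placed only between 13.00 and 18.64 Mb. A free search over the chromosome took the lower stretch of 1 to 20 Mb with the highest binomial likelihood, which need not be the lowest in ratio. It was 4.25 to 16.65 Mb for H3K4me3, at -0.22, and 3.05 to 16.60 Mb for H3K9ac. Both stretches ended past the segment and began before it. For H3K27me3 it was 10.70 to 25.25 Mb, which holds 5.30 Mb of the segment, and for H3K36me3 15.90 to 17.30 Mb, which holds 0.10 Mb of it. In chromosome 15 this search gave 37.55 to 57.55 Mb for H3K4me3, the longest stretch allowed, 49.95 to 68.30 Mb for H3K36me3, 50.75 to 67.90 Mb for H3K27me3 and 4.95 to 24.90 Mb for H3K9ac, which does not touch the segment.

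**Figure D4:**
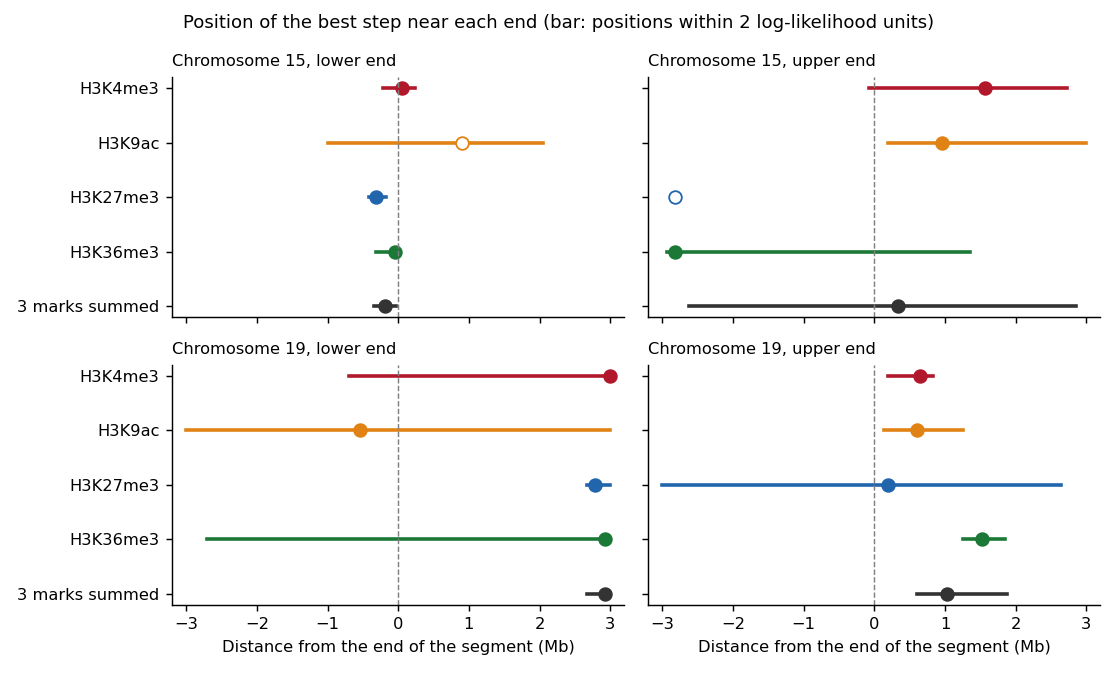
Position of the best step in the ratio near each end of the segments, as distance from the nominal end in Mb, for each mark and for H3K9ac, H3K27me3 and H3K36me3 summed. Bars span positions within 2 log-likelihood units, and open circles are steps whose inside is higher than the outside. At the lower end in chromosome 15, H3K4me3 lies at 0.06, H3K36me3 at -0.04 and H3K27me3 at -0.31 Mb, and at the upper end in chromosome 19, H3K4me3 lies at 0.64 and H3K9ac at 0.60 Mb.

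The segments differed in gene content. The chromosome 15 segment held 25 protein-coding genes, 4.17 per Mb, against 8.17 per Mb in the rest of the chromosome, and 59.3% of its tiles were intergenic. The chromosome 19 segment held 179 protein-coding genes, 22.4 per Mb, of which 65 were olfactory receptors, and its rest held 10.9 per Mb. CpG-rich promoters (HCPs, with a 500-bp interval of at least 55% G+C and a CpG observed to expected ratio of at least 0.6) made 17 of the 25 promoters of chromosome 15 and 55 of the 179 of chromosome 19. CpG-poor promoters (LCPs, with no 500-bp interval at a ratio of 0.4 or more) numbered 1 and 105, and 59 of the 65 olfactory receptor promoters were LCPs.

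H3K4me3 was lower in tiles of all kinds. In chromosome 15 the log2 ratio was -0.22 in tiles near a TSS, -0.27 in other gene body tiles and -0.28 in intergenic tiles, against -0.050, 0.026 and -0.00059 in all tiles of these kinds. In chromosome 19 it was -0.26, -0.18 and -0.27. H3K27me3 was lower in intergenic tiles of the segments (-0.19 and -0.18) than in gene bodies (-0.011 and -0.031). H3K36me3 had the reverse order, with -0.23 and -0.15 in gene bodies and -0.10 and -0.038 in intergenic tiles. Over all tiles, too, H3K27me3 stood at 0.040 in gene bodies and -0.023 between genes, and H3K36me3 at -0.086 and 0.075.

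At promoters, from 1 kb before to 0.5 kb after the TSS, 12 of the 25 genes of chromosome 15 (48%) had fewer H3K4me3 peaks in LLC-R, 6 had the same number and 7 had more, where 43.5% of all 22367 promoters had fewer. In chromosome 19, 98 of 179 promoters (54.7%) had fewer, 47 the same and 34 more. These numbers are not scaled, and windows of neighbouring genes can share a peak. The sum over promoters went from 126 to 120 peaks in chromosome 15, a log2 ratio of shares of -0.066 with an interval from -0.44 to 0.31, too wide to set it apart from 0 or from the -0.27 of the segment. In chromosome 19 it went from 808 to 675, -0.25 (-0.40 to -0.11), against -0.089 over all promoters. For H3K9ac, 15 of 25 (60%) and 114 of 179 (63.7%) had fewer peaks, beside 50.5% of all. In the rest of chromosomes 15 and 19, 51.4% and 57.1% had fewer. These numbers are not scaled to the smaller LLC-R library. As shares of the library, H3K9ac stood at -0.086 (-0.44 to 0.26) in chromosome 15 and -0.11 (-0.24 to 0.023) in chromosome 19. Both intervals include 0, and all promoters stood at -0.028. H3K27me3 peaks were more numerous in 15 of 25 (60%) and 91 of 179 (50.8%), beside 58.5% of all, in numbers that are not scaled to the larger LLC-R library. As shares of the library, H3K27me3 at promoters stood at -0.035 (-0.39 to 0.32) in chromosome 15 and -0.16 (-0.30 to -0.026) in chromosome 19, against -0.070 over all promoters.

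A single promoter holds few peaks, and 72.6% of all promoters differed by at most 1 H3K4me3 peak between the libraries. Losses of 3 or more H3K4me3 peaks occurred at 21 of the 179 promoters of chromosome 19 (11.7%) and 1 of the 25 of chromosome 15 (4%), beside 5.26% of all. Gains of 3 or more occurred at 2 promoters of chromosome 19 (1.12%) and 1 of chromosome 15 (4%), beside 560 of all 22367.

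**Figure D5:**
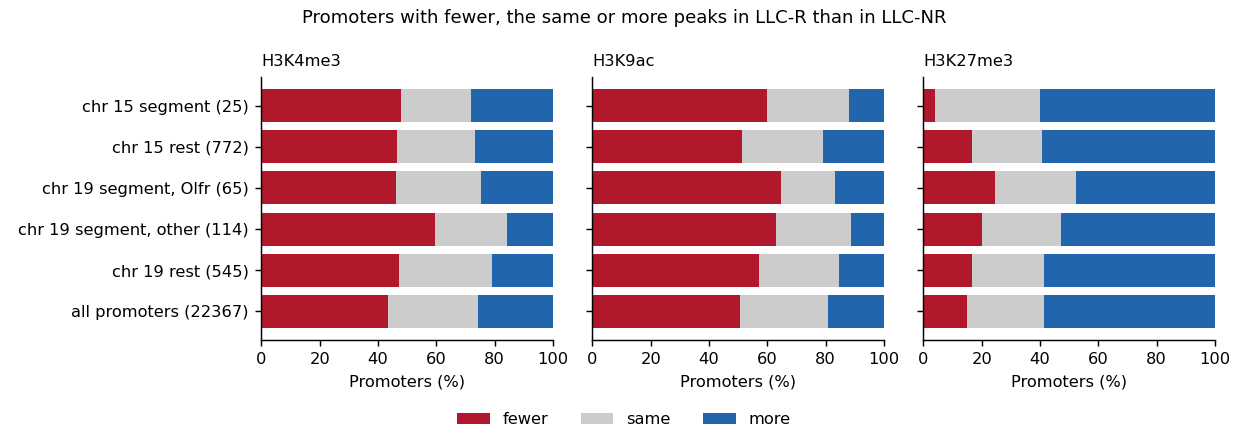
Share of promoters with fewer (red), the same (grey) or more (blue) peaks in LLC-R, compared with LLC-NR, in percent, not scaled for library size, with the number of promoters in brackets. Fewer H3K4me3 peaks were found at 59.6% of the promoters of the chromosome 19 segment that are not olfactory receptors, against 43.5% of all promoters.

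Of the 6 genes of transcription, cohesin and replication in the chromosome 15 segment, H3K4me3 was lower at 4 promoters, equal at 1 and higher at 1. Values are given in the order LLC-NR, LLC-R. Trps1 had 7 and 6 H3K4me3 peaks and 7 and 3 of H3K9ac. Taf2 had 7 and 5 H3K4me3 peaks, Dscc1, a subunit of the clamp loader of sister chromatid cohesion, had 6 and 5, and Mtbp, a protein of replication origin firing, had 7 and 6. Rad21, the cohesin subunit cleaved at anaphase, had 4 in both lines, and Med30, a Mediator subunit, had 5 and 7. The Rad21 peaks were centred at -707, -317, 148 and 325 bp from the TSS in LLC-NR and at -329, -15, 155 and 327 bp in LLC-R, so that 3 of the 4 lay within 12 bp of each other. At Taf2, the LLC-NR peaks at -969 and 379 bp had no LLC-R peak within 74 bp, and the other 5 each had one.

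The 3 genes of protein synthesis and RNA had no fewer H3K4me3 peaks in LLC-R. The translation factor gene Eif3h had 6 and 8 peaks, and Utp23, for ribosome assembly, and Mrpl13, for the mitochondrial ribosome, had 6 in both lines. H3K9ac at Eif3h went the opposite way, with 8 and 5. Among 6 genes of matrix and its receptors, H3K4me3 was lower at 2, equal at 2 and higher at 2. Ext1, which elongates heparan sulfate chains, had 7 and 6 peaks, Nov, a matricellular protein, had 4 and 2, and Enpp2, the secreted enzyme autotaxin, had 6 and 7. The collagen gene Col14a1 had 5 in both lines and the collectin gene Colec10 had 4 in both. Tnfrsf11b, with 2 and 5, also had more H3K9ac (4 and 7) and H3K27me3 (6 and 8). Its LLC-NR peaks were centred at -763 and 7 bp and its LLC-R peaks at -934, -718, -502, 79 and 232 bp.

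Of 5 genes of transport and signalling, Samd12 (7 and 5), the zinc transporter gene Slc30a8 (3 and 2) and the syntrophin gene Sntb1 (6 and 5) had fewer H3K4me3 peaks, Mal2 had 3 in both lines and Deptor, an inhibitor of mTOR, had 6 and 7. The largest difference towards fewer peaks in chromosome 15 was that of the predicted gene Gm10020, 4 and 1, with 4 H3K9ac peaks in both lines.

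In chromosome 19, the 6 genes of lipid and iron metabolism had 42 H3K4me3 peaks in LLC-NR against 32 in LLC-R. Of these, 5 had fewer peaks and 1, Dagla, which makes the endocannabinoid 2-arachidonoylglycerol, had 6 in both. Fads1, the delta-5 desaturase of polyunsaturated fatty acids, had 7 and 5, Fads2, the delta-6 desaturase, had 7 and 6, and Fads3 had 8 and 6. Fth1, the ferritin heavy chain, had 7 and 6. H3K9ac was lower at Fads1 (7 and 3) and Fads3 (6 and 2) and equal at Fth1 (6 and 6). At Osbp, with 7 and 3 H3K4me3 peaks, the LLC-NR peaks lay at -988, -821, -624, -55, 106, 298 and 485 bp from the TSS and the LLC-R peaks at -820, -16 and 374 bp.

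The 7 genes of genome maintenance and RNA had nearly the same H3K4me3 in both lines, with 45 and 42 peaks. Ddb1, of the repair and ubiquitin ligase machinery, had 7 in both, the splicing factor gene Prpf19, the RNA polymerase II subunit gene Polr2g and Incenp, of the chromosomal passenger complex, each had 6 in both. Fen1, the flap endonuclease, had 7 and 6, the elongation factor gene Eef1g 7 and 6 and Cpsf7, of the 3′ end processing machinery, 6 and 5.

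Among 7 leukocyte surface genes, H3K4me3 was lower at 3, equal at 1 and higher at 3, and the sum was 26 in both lines. Cd5 had 5 and 3, Cd6 5 and 4, Ms4a1, which codes for CD20 of B cells, 3 and 4, and Ms4a7 2 and 4. Mpeg1, the macrophage perforin, had 5 in both. The other 14 genes of the Ms4a cluster were lower at 8, equal at 3 and higher at 3, with 59 and 49 peaks. Ms4a5 and Ms4a4d, 6 and 1 against 1 and 4, were the furthest apart. At Ms4a5 the single LLC-R peak was centred at -832 bp, where LLC-NR also had one, and the LLC-NR peaks at -620, -345, -109, 266 and 445 bp had none near them. H3K9ac at Ms4a5 was 6 and 7. Of the organic anion carriers, Slc22a8 had 5 in both lines and Slc22a6 3 and 2. Tle4, a Groucho corepressor, had 7 and 6, and Myrf, the myelin regulatory factor (Gm98 in the annotation), had 3 and 6.

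Among the largest differences towards fewer peaks in chromosome 19 were also Gng3, a G protein gamma subunit of neurons, with 6 and 1 H3K4me3 peaks and 7 and 6 of H3K9ac, and Tmem109, which codes for a membrane protein, with 7 and 3 H3K4me3 peaks and 6 and 6 of H3K9ac. Bscl2, which starts close to Gng3 on the other strand, had 5 and 3. A difference of 4, as at Tmem109 and Osbp, was also found at Lpxn (7 and 3) and 1700025F22Rik (6 and 2). The linker enzyme gene of heparan sulfate, B3gat3, had 5 and 7.

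Olfactory receptors are odorant receptors of sensory neurons and are silent in most other cells. The 65 genes of the cluster, between 11903514 (Olfr1417) and 13993432 (Olfr1505), held 218 and 182 H3K4me3 peaks at promoters. Of these, 30 had fewer (46.2%), 19 the same and 16 more, where 38.0% of all 1113 olfactory receptor promoters had fewer. The log2 ratio of shares was -0.26 (-0.55 to 0.035), and that of all olfactory receptors -0.022. Olfr1445 had 5 and 2 H3K4me3 peaks and 6 and 3 of H3K9ac, and Olfr1500 had 2 and 4 and 5 and 7. The other 114 genes of the segment stood at -0.25 (-0.43 to -0.080). Reads were kept only where they mapped uniquely, so that near-identical copies in the Olfr, Ms4a and Slc22a families may lack peaks in both lines.

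Gene bodies carried 3.21 and 3.75 H3K36me3 peaks per kb in the chromosome 15 segment and 2.88 and 3.49 in that of chromosome 19, beside 2.91 and 3.71 over all genes. As LLC-R had the larger library, an equal number in both lines corresponds to a log2 ratio of shares of -0.44. Peaks of a library never overlap, and whether the ratio of a body follows how densely its LLC-NR peaks lie was not tested. In the chromosome 15 segment, 19 of 22 bodies had a ratio below 0, with a pooled value of -0.22 (-0.26 to -0.17) against -0.085 in the rest of the chromosome. In chromosome 19, 79 of 99 were below 0, at -0.17 (-0.22 to -0.12) against -0.11. Over all genes, 67.4% were below 0 and the pooled value was -0.089. Trps1 had 935 and 956 peaks in its body, 3.97 and 4.06 per kb, a ratio of -0.41. Eif3h had 308 and 321 (-0.38), Ext1 1022 and 1135 (-0.29) and Rad21 115 and 127 (-0.30). All 7 genes of genome maintenance and RNA were below 0, and together they held 4.12 and 4.30 peaks per kb. Ddb1 had 103 and 106 peaks (-0.40) and Incenp 116 and 123 (-0.36). Other genes had ratios near 0 or above it. Cd5 had 47 and 78 peaks, 2.26 and 3.74 per kb, a ratio of 0.28, Samd12 had 1170 and 1534 (-0.053) and Tnfrsf11b 70 and 100 (0.068).

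Fewer peaks in the same stretch lie further apart, and the distances below restate the numbers of peaks that chose the segments. The median distance between midpoints of neighbouring H3K4me3 peaks went from 314 to 371 bp in the chromosome 15 segment, and from 320 to 336 bp in the rest of the chromosome. In the chromosome 19 segment it went from 305 to 358 bp, and from 306 to 320 bp in the rest. An LLC-R peak overlapped 37.9% of the LLC-NR H3K4me3 peaks of the chromosome 15 segment by at least 74 bp, and 43.5% in the rest of the chromosome. In chromosome 19 the shares were 40.6% and 46.3%. Read from the LLC-R peaks, the shares were 45.9% and 45.5% in chromosome 15 and 48.6% and 47.9% in chromosome 19. For H3K27me3, 69.8% of the LLC-NR peaks of the chromosome 15 segment and 68.3% of those of chromosome 19 were matched, beside 69.6% and 71.3% in the rest.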

How the data were processed

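Bowtie (version 0.12.7 in the submitters' processing notes) was used by the authors to align the reads of each library to mm9, and only reads with a unique position entered peak calling with GeneTrack. The deposited files give peak positions (chromosome, start and end) and no count, height or strand. Read depth differed too: the paper reports more uniquely mapped reads in LLC-R for H3K27me3 and H3K36me3, and fewer for H3K4me3 and H3K9ac. Peaks covered from 27.3% to 54.2% of the known sequence of the segments. As peaks never overlap, stretches already dense in peaks have less room for more, which shares of the library need not remove. This was not tested beyond the trend on the peaks of the other 3 marks.

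A peak was assigned by its midpoint to 10-kb tiles and divided by the peaks of its library. Tile ratios have a pseudocount of 0.5. Tiles with at least 20 peaks in the 2 libraries of a mark were counted as lower at a fold of 1.25, which is a share lower by 20% or more. Edges are the step of highest binomial likelihood within 3 Mb of the nominal end, with tiles from 6 Mb outside to the middle of the segment. Genes are the 22367 protein-coding genes of GENCODE vM1 on chromosomes 1 to 19, X and Y, at the TSS shared by most transcripts, and gene bodies of at least 2 kb were used for H3K36me3. Sequence was read from NCBIM37. No peak ended more than 96 bp past a chromosome end of it.

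The segments, the gene lists and the measures were chosen with earlier results of these data known. Named are the genes of the role lists, the 3 largest differences in H3K4me3 peaks each way per segment (ties by the LLC-NR number, then position) and the genes at the edges, besides Nxf1, Tmem223, Bscl2, Lpxn, 1700025F22Rik, Olfr1445 and Olfr1500, chosen after their values were seen. Has2, Slc22a12 and Psat1 of the lists lie outside the segments. The edge search was tested on simulated data with 1 clean lower stretch and the same expected number of peaks in all LLC-NR tiles. Uneven tiles and the weakest steps found here were not simulated. Tools were SciPy 1.17.1, NumPy 2.4.6, Matplotlib 3.10.9 and pandas 2.3.3 under Python 3.11.15.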

Additional observations from a re-analysis of the deposited data

How the results depend on the processing

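All 8 log2 ratios of the segments stayed below 0 under each of the 5 alternatives run: scaling to the rest of the chromosome, a trend on G+C content taken out, tiles away from any TSS, 1 Mb taken off both ends and, chosen after seeing the data, a trend on the peaks of the other 3 marks taken out. The H3K4me3 ratios chose the segments, so that they stayed below 0 is a description. Scaled to the rest of the chromosome, H3K4me3 moved to -0.21 in both segments, H3K9ac to -0.053 in chromosome 15, and H3K27me3 and H3K36me3 to -0.056 and -0.037 in chromosome 19. With 1 Mb taken off both ends, H3K36me3 in chromosome 15 moved to -0.11. With a fold of 1.5, the lower tiles of H3K4me3, H3K9ac, H3K27me3 and H3K36me3 numbered 80, 0, 0 and 9 in chromosome 15 and 94, 21, 2 and 5 in chromosome 19, since fewer tiles pass a stricter limit. Scaled to the rest of the chromosome, they numbered 27 for H3K9ac and 62 for H3K27me3 in chromosome 15, and 53 for H3K27me3 and 77 for H3K36me3 in chromosome 19. Without the filter on low tiles, the 8 counts stayed within 1.5 times. Counts of promoters did so with a promoter of 2 kb on both sides and with the TSS farthest upstream, and all 20 steps stayed in their range with 50-kb tiles. Taken from the free search over the whole chromosome instead, 12 of the 20 ends moved out of their range and 8 did not. The number of peaks and the single library per line and mark limit these values. No paired analysis was possible because each line and mark has 1 library.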

Other observations

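Outside the segment of chromosome 15, the bins at 61 to 62 and 62 to 63 Mb, in which Myc (TSS at 61816946) is the only protein-coding gene, held more H3K4me3 peaks than their neighbours in both lines. The first of them, with the TSS of Myc, held 3356 peaks in LLC-NR against 3242 in LLC-R, and the second 3368 and 3126. The bin before held 1914 and 1791, and the bin after held 2062 and 1834. H3K9ac, H3K27me3 and H3K36me3 peaks were also more numerous in the bins at 61 to 62 and 62 to 63 Mb than in those beside them, in both lines. For H3K27me3 in LLC-NR, these bins held 3859 and 3871 peaks, the bin before 3013 and the bin after 2815.

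The Y chromosome held from 48 to 328 peaks in the 4 libraries of LLC-NR and from 1497 to 3205 in the 4 libraries of LLC-R.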
